A study of Homo sapiens with 6 samples.

Results

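Mitochondrial ribosomal proteins were taken as every gene of the deposited table whose symbol begins with MRPL or MRPS followed by a digit. This gave 78 of 17177 genes, 49 named for the large subunit and 29 named for the small subunit. Their mRNA was measured by RNA-seq in NCI-H660, an established line of neuroendocrine prostate cancer cells. The cells, wild type by their label, had received either PBS as control (3 libraries) or pyrvinium pamoate (PP, 3 libraries), an anthelmintic that the study used to block the RNA-binding protein ELAVL3. Both groups were sampled on day 3, and all 6 libraries come from this 1 line. The comparison asks how PP shifted the transcriptome of these cells, and here how the mRNAs of the mitoribosome stood within it.

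The mitochondrial ribosome, or mitoribosome, is a separate ribosome inside mitochondria that translates the few mRNAs of the mitochondrial genome, all of which code for subunits of the respiratory chain and the ATP synthase. Its ribosomal RNAs are made in the mitochondrion, whereas its proteins are encoded in the nucleus, made in the cytosol and imported. The small subunit binds the mRNA and reads the codons, and the large subunit joins the amino acids and holds the tunnel through which the new chain leaves. Part of the proteins have a counterpart in bacterial ribosomes, and the rest were gained in mitochondria. Names and structure do not always match. MRPS30 and MRPS18A are found in the large subunit of the human mitoribosome, and the product of MRPS36 belongs to the 2-oxoglutarate dehydrogenase complex.

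The libraries held between 29320121 and 32773468 counts, as recovered from the steps of the FPKM values (fragments per kilobase, relative to all mapped fragments of that library). All 8 neuroendocrine markers, among them CHGA and SYP, were at an FPKM of at least 1 in every library, and so were all 4 epithelial markers. Of 8 markers of blood, stroma and endothelium, only COL1A1 was, with a highest FPKM of 4.29. The study calls the samples of each treatment independent, and neither it nor the labels say that they came from separate cultures, so p-values measure the spread between these libraries. FPKM gives each mRNA as a share of its library. A change in the cells that make up a culture and a change in mRNA per cell cannot be told apart.

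The 77 members with a RefSeq position lay on 21 chromosomes, with at most 8 on any of them. To show what stands in front of genes that moved in opposite directions, the 250 bases upstream of the start were searched on both strands for motifs of factors known to act on genes for mitochondria or ribosomes, with RefSeq promoters of GRCh38.p14. A promoter was matched for 69 of the 78 members. The core of the motif of ETS factors, CCGGAAG, was in 23 of 69 members (33.3%), against 8.52% of all 35116 promoters and 16.8% of those of genes tested here. The motif of NRF1, a regulator of nuclear genes for mitochondria, was searched as GCATGCGC and was in 6 members (8.70%), against 2.63% of all promoters and 5% of those of genes tested. It can overlap its own reverse complement, and each promoter was counted once. The YY1 motif AAGATGGC was in 5 members (7.25%, against 1.36% of all promoters and 1.88% of those of genes tested), and the E-box CACGTG was in 6 (8.70%), above the 6.34% of all promoters but below the 9.15% of those of genes tested. The C/EBP-ATF element TGATGCAA was in 0 of 69 windows, against 0.772% of all promoters and 0.366% of those of genes tested. Sites of 30 bases are printed for members that moved most, with the motif (or its reverse complement) in capitals, read 5′ to 3′ on the strand of the gene. The first pair holds the ETS core in a gene that was higher with PP and in the gene with the lowest fold change. MRPL58 lies at chr17:75012640-75012669 (plus strand) and MRPL27 at chr17:50373218-50373247 (minus strand). The second pair holds the NRF1 motif in 2 genes that were higher, MRPS18B at chr6:30617806-30617835 (plus strand) and MRPL32 at chr7:42932326-42932355 (plus strand).
MRPL58: gaccgcggggaggaagcgcccgCCGGAAGc
MRPL27: ccacgcagggcCCGGAAGtagatctcctga
MRPS18B: agtttcctgaaGCATGCGCagttgcctttc
MRPL32: tctgtgcctgtGCGCATGCtgaaagcaggg
The ETS core was in 10 of 30 members that were higher with PP, in 5 of 13 that were lower and in 8 of 25 that were not called. GCATGCGC was in 4 of 30, 0 of 13 and 2 of 25. The E-box CACGTG was in 5 of 30, 0 of 13 and 1 of 25, and AAGATGGC in 3 of 30, 1 of 13 and 1 of 25. Differences between these groups were not tested. These are matches of letters, and binding was not measured.

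Members of both subunits moved in both directions, and no member moved far. Of 77 members tested, 34 were higher with PP, 15 were lower and 28 were not called (adjusted p under 0.05 by limma, Benjamini-Hochberg over 11726 genes). The shares were 44.2% higher and 19.5% lower. Among all genes tested, 38.1% were higher and 34.4% were lower, so the share of higher members lay near the background and that of lower members below it. The log2 fold changes ran from -0.77 for MRPL27 to 0.64 for MRPS30, and members that were not called lay between -0.17 and 0.12. At the stricter cutoff of the methods (unadjusted P under 0.001 with a log2 fold change past 1 or -1), limma called 0 members in either direction. In the background 2.24% of genes passed that cutoff upward and 2.93% downward. An unadjusted P under 0.05 by limma was reached by 49 of 77 members and by 8717 of all 11726 genes. The 3 PP libraries lay entirely above the 3 PBS libraries for 30 members and entirely below them for 17. The same was true of 39.5% and 35.5% of all genes.

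**Figure D1:**
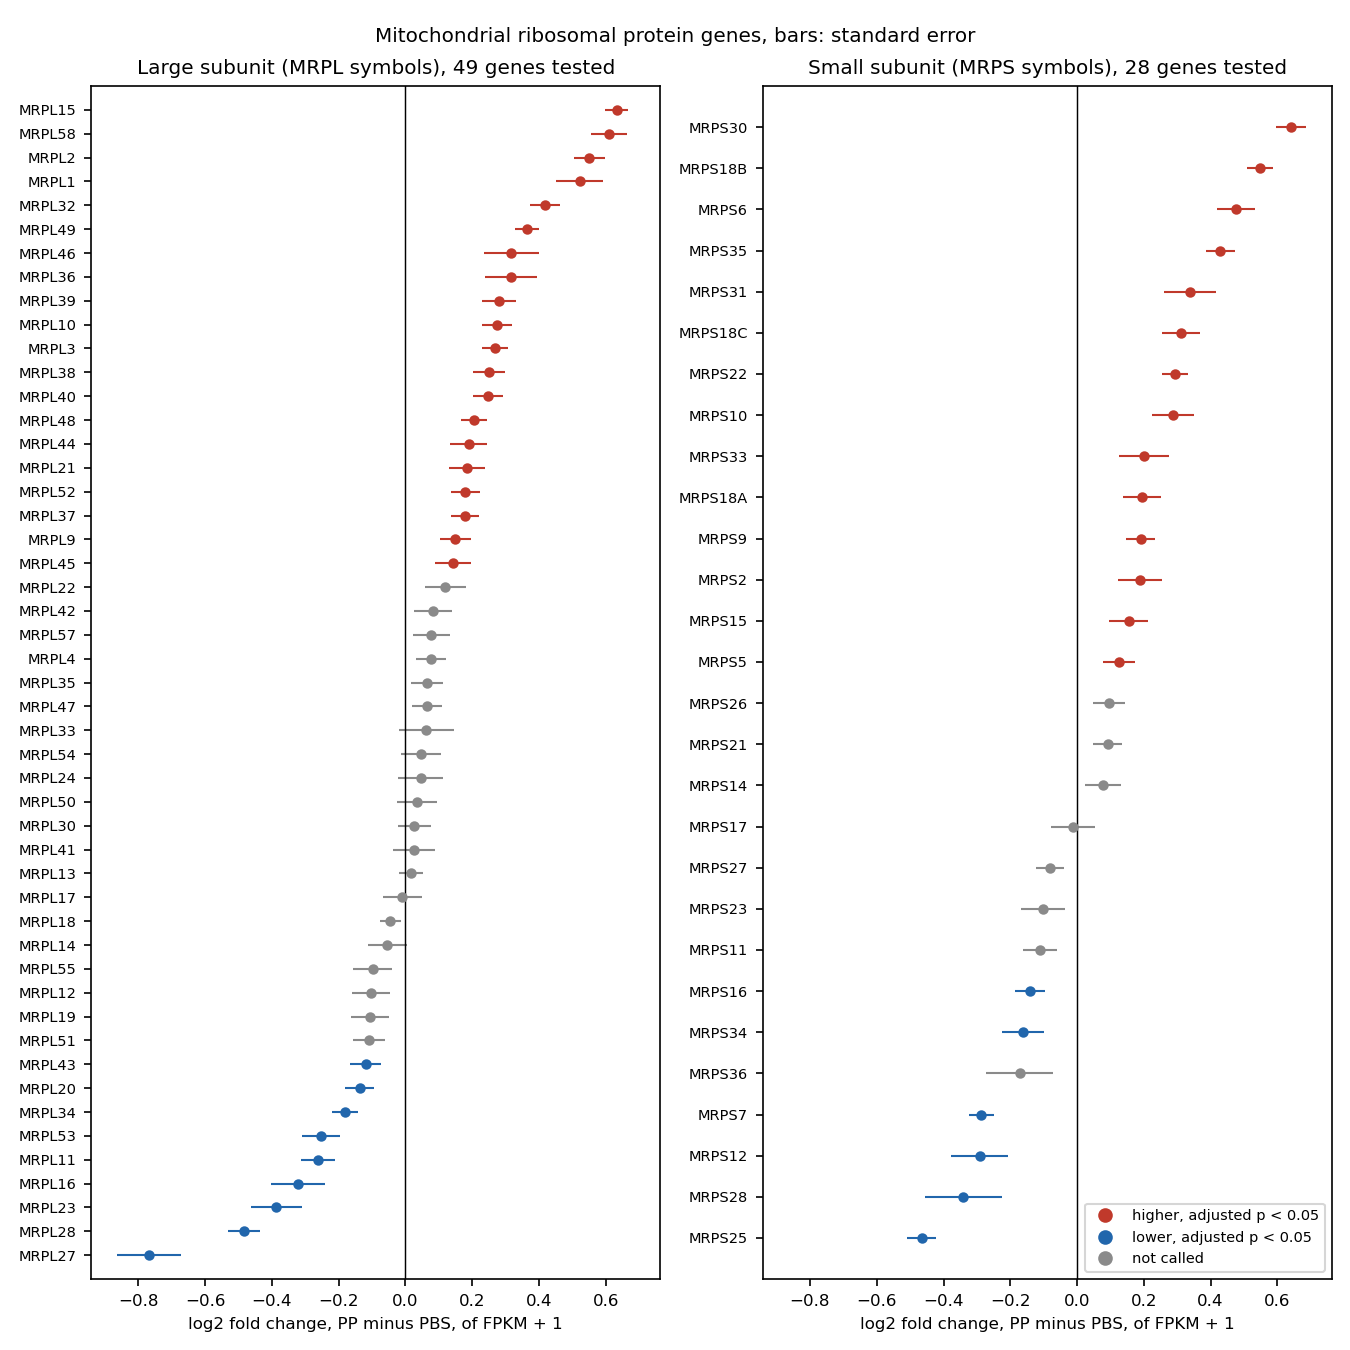
Log2 fold change of FPKM + 1 (PP minus PBS, horizontal axis) for each of 49 MRPL genes (left) and 28 MRPS genes (right), sorted by value, with bars for the standard error from limma. Red marks genes called higher, blue genes called lower and grey genes not called at an adjusted p under 0.05. Both subunits span from about MRPL27 and MRPS25 at the lower end to MRPL15 and MRPS30 at the upper end.

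The large and the small subunit gave similar counts. Of 49 large subunit genes, 20 were higher (40.8%) and 9 were lower (18.4%), with a median log2 fold change of 0.065. Of 28 small subunit genes tested, 14 were higher and 6 were lower (21.4%), with a median of 0.11. The median of all genes tested was 0.022. Without PP replicate 2, only 3 small subunit genes were lower, since MRPS16, MRPS28 and MRPS34 lost their call. With genes placed by structure (MRPS30 and MRPS18A in the large subunit, MRPS36 left out), 22 of 51 large subunit genes were higher and 9 lower, against 12 and 6 of 25 tested small subunit genes. Summed over all members, the PBS libraries came to an FPKM of 2260 ± 38.4 and the PP libraries to one of 2428 ± 28.6 (SD, n = 3). The lowest PP library summed to 2399 and the highest PBS library to 2299, so the groups did not overlap. The large subunit summed to 1531 ± 28.0 and 1633 ± 16.0, and the small subunit to 729 ± 11.4 and 795 ± 12.7 (SD, n = 3). The ratio of the large to the small sum was 2.12, 2.10 and 2.08 in the PBS libraries and 2.04, 2.06 and 2.06 in the PP libraries, with genes placed by symbol. With genes placed by structure it was 2.41, 2.38 and 2.36 with PBS and 2.35, 2.41 and 2.41 with PP, so the groups overlapped and the lower ratio with PP was not seen.

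**Figure D2:**
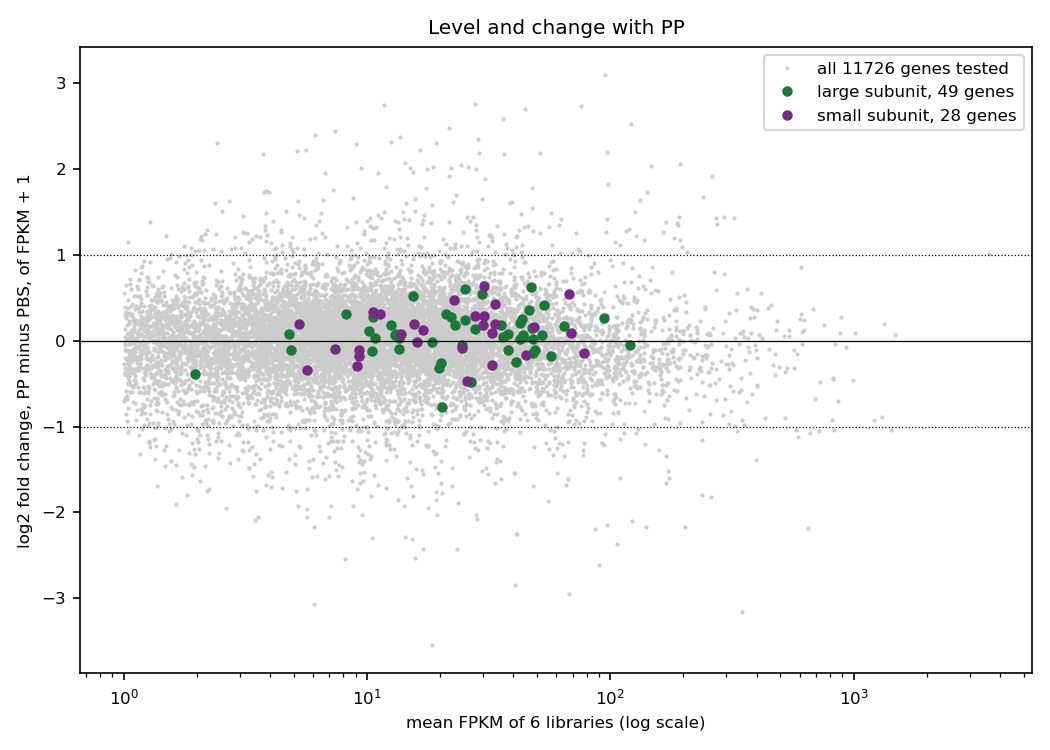
Mean FPKM over 6 libraries (horizontal, log scale) against the log2 fold change of FPKM + 1 (vertical) for all 11726 genes tested in grey, the 49 large subunit genes in green and the 28 small subunit genes in purple. Dotted lines mark log2 fold changes of 1 and -1, and every member lies between them.

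MRPS30 had the highest fold change of all members. It is named for the small subunit but sits in the large one, and its gene lies at chr5:44808947-44815514 (GRCh38.p14). Its FPKM was 23.2, 23.3 and 23.5 in the PBS libraries and 34.6, 37.9 and 38.4 in the PP libraries. All PP libraries were far above the PBS libraries, which lay close together. The difference on the log2 scale was 0.64 (standard error 0.05, adjusted p = 6.21e-07 by limma), from 1125 to 1208 counts per PBS library and 1752 to 2075 per PP library. MRPS18A, also found in the large subunit, was at 32.1, 31.9 and 29.6 with PBS and at 33.6, 39.0 and 35.04 with PP. Its groups did not overlap, but PP replicate 1 came close to PBS replicate 1, and the difference was 0.19 on the log2 scale (standard error 0.06, adjusted p = 0.0112 by limma).

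MRPS18A, MRPS18B and MRPS18C are 3 genes that each code for a relative of the bacterial small subunit protein S18. All 3 were higher with PP. MRPS18B, at chr6:30617840-30626392 (GRCh38.p14), was at 55.5, 56.5 and 52.4 with PBS and at 79.1, 82.9 and 79.5 with PP. The groups were widely apart, with a log2 fold change of 0.55 (standard error 0.04, adjusted p = 6.74e-07 by limma). MRPS18C, the lowest of the 3 in FPKM, was at 9.60, 9.64 and 10.9 with PBS and at 13.2, 12.7 and 12.1 with PP. These groups did not overlap either, and the difference was 0.31 on the log2 scale (standard error 0.06, adjusted p = 0.000673 by limma).

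Among genes of the large subunit, MRPL15, MRPL58, MRPL2, MRPL1 and MRPL32 rose most. MRPL15, the counterpart of a bacterial protein of the subunit core, was at 36.99, 36.3 and 37.3 with PBS and at 58.4, 58.4 and 56.3 with PP. Its difference on the log2 scale was 0.63 (standard error 0.03, adjusted p = 1e-07 by limma), and the spread within each group was small beside the gap. MRPL58, also known as ICT1, is a peptidyl-tRNA hydrolase built into the ribosome that can free chains from stalled ribosomes. It was at 19.4, 19.9 and 19.9 with PBS and at 29.7, 28.8 and 33.5 with PP, with PP replicate 3 the highest. The difference on the log2 scale was 0.61 (standard error 0.05, adjusted p = 3.51e-06 by limma).

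MRPL2, whose bacterial counterpart lies near the site of peptide bond formation, was at 24.0, 24.7 and 23.1 with PBS and at 34.5, 37.4 and 34.7 with PP. MRPL1, the protein of the mobile stalk beside the exit site of tRNA, was at 13.5, 12.6 and 11.3 with PBS and at 19.8, 18.0 and 17.2 with PP. Both genes kept a clear gap between the groups, and their log2 fold changes were 0.55 and 0.52. MRPL32, which is cut to its mature form by a protease of the inner membrane before it joins the ribosome, was at 47.0, 46.3 and 43.7 with PBS and at 57.9, 63.6 and 62.4 with PP (log2 fold change 0.42, adjusted p = 1.53e-05 by limma).

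In the small subunit, MRPS6, MRPS35 and MRPS31 followed MRPS30 and MRPS18B. MRPS35 and MRPS31 have no counterpart in bacteria, whereas MRPS6 does. MRPS35 was at 29.8, 27.8 and 27.6 with PBS and at 39.7, 38.0 and 38.0 with PP (log2 fold change 0.43). MRPS31 was at 9.58, 10.03 and 8.08 with PBS and at 11.0, 12.7 and 12.1 with PP (log2 fold change 0.34). Neither gene's groups overlapped, although the gap was narrow for MRPS31. MRPS6 was at 18.0, 18.3 and 20.5 with PBS and at 26.9, 25.2 and 28.0 with PP, with a log2 fold change of 0.48. Its exons overlap those of the inositol transporter gene SLC5A3 on the same strand, which had a log2 fold change of 0.12 (adjusted p = 0.0527 by limma), and reads from the shared part cannot be told apart.

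**Figure D3:**
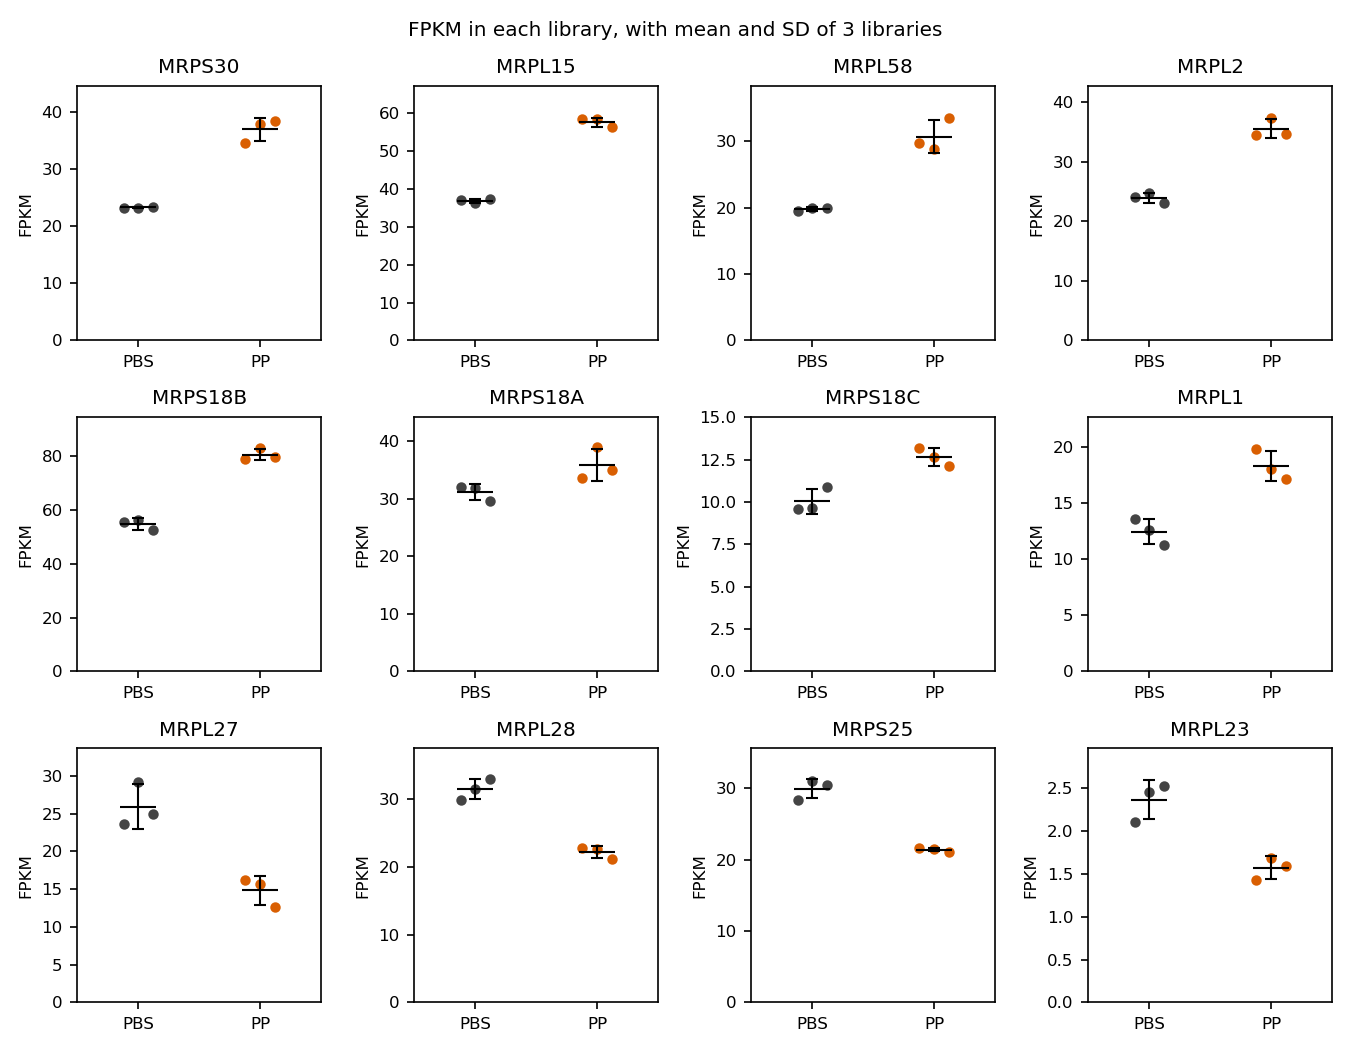
FPKM (vertical axis, from 0) in each of the 3 PBS (grey) and 3 PP (orange) libraries for 12 members, with a line for the mean and bars for the SD. The PP libraries lie above the PBS libraries for the first 8 genes and below them for MRPL27, MRPL28, MRPS25 and MRPL23, with no overlap in any panel.

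MRPL27 fell most. Its bacterial counterpart reaches into the centre where peptide bonds form, and its gene lies at chr17:50367867-50373184 (GRCh38.p14). The FPKM was 23.6, 29.2 and 24.9 in the PBS libraries and 16.1, 15.7 and 12.6 in the PP libraries. The groups stood apart, but both were more widely spread than for most members, since the median coefficient of variation within a group was 4.56% with PBS and 4.74% with PP. The difference on the log2 scale was -0.77 (standard error 0.10, adjusted p = 4.13e-05 by limma), and leaving out single libraries gave -0.83 to -0.66. From 501 to 588 counts per PBS library and 283 to 340 per PP library stood behind these values.

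MRPL28, MRPL23, MRPL16 and MRPL11 were the other large subunit genes that fell most. MRPL28 was at 29.9, 31.5 and 32.9 with PBS and at 22.7, 22.7 and 21.1 with PP, a log2 fold change of -0.48 with no overlap. Its exons overlap those of PGAP6 on the same strand, and PGAP6 fell too (log2 fold change -0.30, adjusted p = 0.000136 by limma). MRPL23, which lies at the exit of the peptide tunnel, was the least abundant large subunit gene, at 2.11, 2.46 and 2.53 with PBS and at 1.43, 1.69 and 1.60 with PP. All PP values were below all PBS values, and the log2 fold change was -0.39 (standard error 0.08), on a scale where the added 1 shrinks the change of such a low gene. MRPL16 was at 23.0, 22.6 and 20.5 with PBS and at 19.8, 15.3 and 17.3 with PP. Its PP replicate 1 came close to PBS replicate 3, and the log2 fold change was -0.32. MRPL11, a protein of the stalk where translation factors bind, was at 21.1, 21.8 and 23.3 with PBS and at 17.2, 18.6 and 18.9 with PP (log2 fold change -0.26).

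In the small subunit, MRPS25 fell most, followed by MRPS28, MRPS12, MRPS7 and MRPS34. MRPS25, which has no bacterial counterpart, was at 28.4, 31.0 and 30.5 with PBS and at 21.7, 21.5 and 21.1 with PP. The PP libraries were nearly equal and well below PBS, with a log2 fold change of -0.46 (standard error 0.04, adjusted p = 4.51e-06 by limma). MRPS7, a protein of the head of the subunit, was at 36.0, 35.04 and 37.1 with PBS and at 29.3, 29.7 and 29.1 with PP, with as clear a separation (log2 fold change -0.29). MRPS12, the counterpart of the bacterial protein at the decoding site, was at 9.78, 10.4 and 10.05 with PBS and at 9.53, 7.06 and 7.72 with PP. Here PP replicate 1 was almost at the level of PBS replicate 1, and the log2 fold change was -0.29 (standard error 0.09). MRPS28 was at 6.16, 7.16 and 5.88 with PBS and at 6.10, 4.54 and 4.04 with PP, so its groups overlapped, and its call was lost in several fits with a library left out (adjusted p up to 0.0886 by limma). MRPS34 was at 50.2, 47.0 and 45.3 with PBS and at 44.9, 38.1 and 44.3 with PP (log2 fold change -0.16).

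The most abundant member was MRPL18, whose bacterial counterpart binds the RNA of the central protuberance. It was at 122, 125 and 121 with PBS and at 120, 117 and 120 with PP, with a log2 fold change of -0.05 that was not called (adjusted p = 0.209 by limma). The most abundant small subunit gene, MRPS16, was at 77.9, 81.8 and 85.2 with PBS and at 78.0, 72.2 and 71.6 with PP. These groups overlapped, and MRPS16 was called lower by 0.14 on the log2 scale. MRPS36, whose product is not part of the ribosome, was at 8.86, 9.96 and 10.6 with PBS and at 9.88, 7.10 and 8.98 with PP and was not called (log2 fold change -0.17, adjusted p = 0.15 by limma). MRPS24 was the only member below the filter of a mean FPKM of 1. Its FPKM was 0.194, 0.0511 and 0.0480 with PBS and 0.293, 0.0496 and 0.0915 with PP, from between 1 and 6 counts per library, so no difference was detectable at this depth. Its exons overlap those of a read-through transcript with its neighbour URGCP, which itself was at a mean of 15.1 with PBS and 14.7 with PP.

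Members were also grouped by origin and place in the ribosome, as descriptions beside the background shares given above. Of 47 tested members with a bacterial counterpart, 18 were higher and 11 lower, and of 29 mitochondria-specific members 16 were higher and 4 lower. In the large subunit the first kind gave 9 higher and 7 lower of 30 (median log2 fold change 0.04), and the second kind 11 higher and 2 lower of 19 (median 0.18). In the small subunit the counts were 9 higher and 4 lower of 17 (median 0.13), and 5 higher and 2 lower of 10 (median 0.15). These groups were placed by symbol. The small subunit groups therefore hold MRPS18A (log2 fold change 0.19, bacterial counterpart) and MRPS30 (0.64, mitochondria-specific), which sit in the large subunit. Without MRPS30, the middle gene of the mitochondria-specific kind was MRPS26 (0.0953). Without MRPS18A, the middle genes of the bacterial kind were MRPS21 (0.0915) and MRPS5 (0.126). The order of the 2 small subunit medians was then reversed, so it rested on these genes. The difference between the 2 kinds was not tested.

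The central protuberance, the crown of the large subunit that faces the head of the small subunit, was represented by 7 genes. The lists for this and the other places left many members unplaced, MRPL58 among them, and may not be complete. MRPL38, MRPL40, MRPL46, MRPL48 and MRPL52 rose, with log2 fold changes from 0.18 to 0.32, and MRPL18 and MRPL55 were not called. Of 5 genes of the factor-binding stalk, MRPL10 rose (log2 fold change 0.27), MRPL11 and MRPL53 fell (log2 fold changes -0.26 and -0.25), and MRPL12 and MRPL54 were not called. MRPL10 was at 20.8, 19.2 and 19.8 with PBS and at 23.5, 24.7 and 24.8 with PP, and MRPL53 was at 46.9, 46.4 and 40.5 with PBS and at 38.7, 37.03 and 36.0 with PP. Neither gene's groups overlapped, in opposite directions within 1 structure. MRPL53 shares exons on the same strand with CCDC142, which fell as well (log2 fold change -0.22, adjusted p = 0.00992 by limma). Of 9 genes around the exit tunnel, MRPL39, MRPL44 and MRPL45 rose, MRPL23 fell and 5 were not called. Of 4 tested genes at the decoding site and mRNA path, MRPS2 and MRPS5 rose, MRPS12 fell and MRPS21 was not called.

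How a gene's reads are counted matters for this family, because many of its genes are short and lie close to others. In the GENCODE annotation on GRCh37, exons of 18 of 78 members overlap another gene on the same strand and exons of 30 overlap one on the opposite strand, which leaves 37 with neither. The library kit keeps the strand, and the strand setting of the counting was not given in the sources used here. Pseudogenes are annotated for 36 members, 79 in all. Among the 37 members with no overlap, 19 were higher (51.4%) and 3 were lower (8.11%), with MRPS30, MRPL15, MRPL58, MRPL1 and MRPL27 among them. The shares over all genes tested were 38.1% and 34.4%. Of the 15 lower members, only these 3 had no overlap. The share of genes with an overlap was not counted over all genes tested, and whether overlap bears on the falls was not tested. Among others, MRPL2, MRPL12, MRPL38, MRPL46, MRPS5, MRPS25 and MRPS28 each overlap an annotated gene without a symbol on the same strand. MRPS18A, MRPS18C, MRPS2, MRPS7, MRPS16, MRPS34, MRPL11, MRPL23 and MRPL44 are among those that overlap a gene on the opposite strand. The values of members with an overlap are less certain. Across 77 members the log2 fold change had almost no correlation with log2 gene length (Pearson's r = 0.004, Spearman's rho = 0.05) and a weak one with log2 mean FPKM (r = 0.19, rho = 0.13). All points share the same 6 libraries. Median gene length was 1551.5 bases for higher members, 1083 for lower members and 1603 for those not called. Removing a length trend fitted over all genes kept 41 of 49 calls and gained 9 (MRPL18, MRPL33, MRPL41, MRPL47, MRPL54, MRPS11, MRPS21, MRPS26 and MRPS27). The large subunit then had 25 genes higher and 6 lower, and the small subunit 14 and 5. The calls therefore depended in part on how length was handled.

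Genes that work with the mitoribosome were taken from lists of its other subunits, its assembly factors and the factors of mitochondrial translation. Of 5 subunits with other symbols, DAP3, AURKAIP1 and GADD45GIP1 were not called, and PTCD3 and CHCHD1 fell by 0.14 and 0.15 on the log2 scale. Of 26 assembly factors 11 were higher and 3 lower (median log2 fold change 0.14), in a background of 38.1% and 34.4%. GTPBP10, a GTPase that matures the large subunit, was at 5.95, 5.32 and 5.32 with PBS and at 9.68, 10.1 and 11.0 with PP (log2 fold change 0.79). NOA1, another GTPase among the assembly factors, had a log2 fold change of 0.47, and RBFA, which helps to finish the small subunit, one of -0.28. MTERF4, which guides the methyltransferase NSUN4 to the ribosome, had a log2 fold change of -0.16 (adjusted p = 0.042 by limma).

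Of 19 tested translation factors 13 were higher (68.4%) and 1 was lower (5.26%), with a median log2 fold change of 0.22. Among all genes tested 38.1% were higher and 34.4% were lower. The list is broad and also holds genes that modify mitochondrial tRNAs. MTO1, which modifies the wobble base of mitochondrial tRNAs, was at 2.70, 2.69 and 2.80 with PBS and at 5.57, 5.15 and 5.61 with PP. It had the highest log2 fold change of the list, 0.79 (standard error 0.06, adjusted p = 7.95e-07 by limma), with the groups far apart. GUF1, the mitochondrial relative of the elongation factor LepA, had a log2 fold change of 0.64. TUFM, the elongation factor that brings the aminoacyl-tRNA, was the gene that fell, from 79.4, 80.3 and 75.5 to 67.1, 69.1 and 64.4 (log2 fold change -0.23, adjusted p = 0.000451 by limma).

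The cytosolic ribosome, which makes the proteins encoded in the nucleus, served as the nearest family for comparison. Of 82 tested genes for its proteins, 38 were higher (46.3%) and 19 lower (23.2%), with a median log2 fold change of 0.06. The shares over all genes tested were 38.1% and 34.4%. RPL22L1 (log2 fold change 1.10) and RPL12 (0.86) rose most, and RPS9 (-0.40) was among those that fell. RPL22L1 was the 1 gene past the stricter cutoff. The summed FPKM of this family was 24486 ± 326 under PBS and 26101 ± 668 under PP (SD, n = 3), also without overlap.

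**Figure D4:**
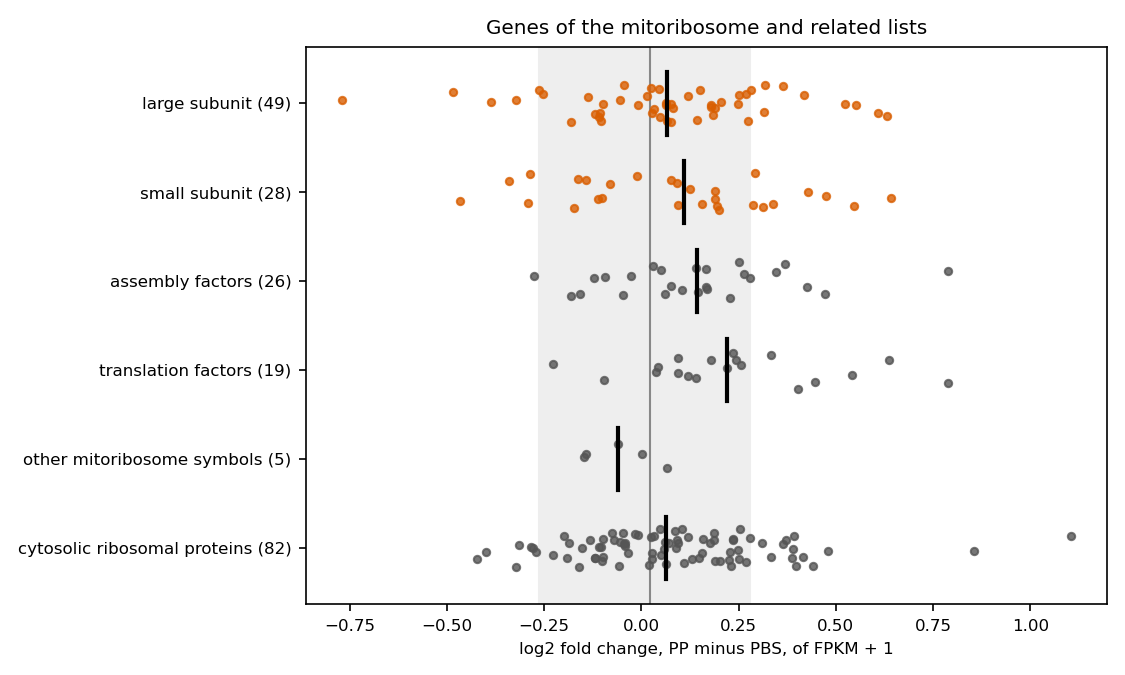
Log2 fold change of FPKM + 1 (PP minus PBS) for each tested gene of 6 lists, with the number of genes in brackets. Black bars mark the list medians, the grey line the median of all 11726 genes and the grey band their middle range between the quartiles. The medians run from below 0 for the 5 other mitoribosome symbols to 0.22 for the translation factors, and the points of both subunits reach beyond the band on each side.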

How the data were processed

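The authors deposited FPKM values of 17177 gene symbols for 6 libraries. The methods name hg19, Bowtie, RSEM, Cufflinks and HTSeq, and the submitters' processing notes name GRCh38, fastp, HISAT2 and HTSeq, so the build behind the values is not settled and the coordinates given here are those of RefSeq. The methods speak of 2 samples per group and the legends of 3 independent samples, and all 6 labelled libraries were used. Whole counts, library totals and gene lengths were recovered from the steps of the FPKM values (tolerance 0.01 of a count and 0.05 of a base). Recovered lengths were whole for 99.1% of genes and for all 78 members.

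Differences were fitted with limma 3.58.1 in R 4.3.3 (lmFit, eBayes with trend) on log2(FPKM + 1) for 11726 genes (mean FPKM of 1 or more), and P values were adjusted by Benjamini-Hochberg over all of them. Fold changes on this scale understate those of low genes. The steps were tested on simulated data. Recovery and figures used Python 3.11.15, numpy 2.4.6, pandas 2.3.3 and matplotlib 3.10.9. Alternatives were a pseudocount of 0.1, no filter, a filter at a mean FPKM of 5, median-ratio size factors, eBayes without trend, limma-voom on recovered counts, removal of a gene length trend, genes placed by structure, a replicate block and each library left out. The members and lists were chosen with earlier results of these data known. Values in every library are given for the 5 highest and 5 lowest called members of each subunit, the most and least abundant, the MRPS18 genes, MRPS30, MRPS36 and members under the filter, and of other lists the 2 genes at each end may be named. Values of MRPL10 and MRPL53 in each library were added after they were seen. Same-strand neighbours were named where they overlap a described member. Values of some genes outside the family are not reported here.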

Additional observations from a re-analysis of the deposited data

How the results depend on the processing

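Of the 49 members called, 34 were tested and called again under every alternative in which genes were fitted anew, and none changed direction. The others (MRPL20, MRPL23, MRPL34, MRPL43, MRPL45, MRPL53, MRPL9, MRPS12, MRPS15, MRPS16, MRPS2, MRPS28, MRPS33, MRPS34 and MRPS5) lost it in at least 1, MRPL23 only where the filter of 5 removed it, and the cause was otherwise not tested. With a library left out, 18 to 20 large subunit genes were higher and 7 to 11 lower, and 11 to 15 small subunit genes were higher and 3 to 8 lower, with 3 lower without PP replicate 2. The large subunit median then lay between 0.066 and 0.085 and that of the small subunit between 0.097 and 0.14. The large subunit median was 0.12 with the gene length trend removed and 0.043 with median-ratio size factors, which moved the median of all genes from 0.022 to 0.0014 and the split of all calls to 35.9% higher and 36.2% lower. A restriction to members with no exon overlap was chosen after seeing the data and left fewer genes. Of 25 large subunit genes 12 were then higher and 2 lower (median 0.12), and of 12 small subunit genes 7 were higher and 1 lower (median 0.18). The difference (PP minus PBS) in the ratio of the large to the small summed FPKM was -0.044 with genes placed by symbol and 0.0083 with genes placed by structure, a setting applied to it after seeing the data. Assembly factors that were lower numbered 1 with a mean FPKM of at least 5, where fewer were tested, and with no filter, and 1 to 4 with a library left out (1 without PBS replicate 3 or PP replicate 2). Lower translation factors numbered 1 to 2 (2 without PBS replicate 2). Of the other mitoribosome symbols, 1 was lower with no filter and 1 to 2 with a library left out (1 without PBS replicate 1, PBS replicate 2 or PP replicate 2), and 1 was higher and 1 lower with the length trend removed.

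Reversals of sign were found only for members that were not called. Median-ratio size factors gave -0.0073 for MRPL13. Removing the length trend gave 0.085 for MRPL18, -0.026 for MRPL30, 0.0062 for MRPL51 and 0.014 for MRPS17. Of these only MRPL18 was called (adjusted p = 0.0369 by limma). With a library left out, values ran from -0.046 to 0.051 for MRPL17, -0.040 to 0.090 for MRPL24, -0.0012 to 0.065 for MRPL30, -0.036 to 0.16 for MRPL33, -0.043 to 0.072 for MRPL41, -0.013 to 0.078 for MRPL50 and -0.093 to 0.029 for MRPS17. At these depths, a change larger than its standard error can still be unresolved. In the main fit MRPL51 at -0.109 (standard error 0.049) and MRPS11 at -0.112 (standard error 0.051) were not called.

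Deviations from the group mean had correlations of -0.21, -0.01 and -0.13 between PBS and PP libraries of the same number. Libraries of different numbers were not compared, so these values cannot show whether libraries were handled in pairs. In a fit with a replicate block, 45 of the 49 member calls were kept (MRPL43, MRPL45, MRPS33 and MRPS5 were lost), with 19 large subunit genes higher and 8 lower and 12 small subunit genes higher and 6 lower. Over all genes, 4260 were higher and 3878 lower in that fit.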
